A study of Homo sapiens with 8 samples.

Results

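The genes described here are 46 genes of the actin cytoskeleton, among them known targets of the transcription factor SRF (serum response factor) and SRF itself with its co-activator MRTFA. The members were named as a list, and each was followed through every array probe annotated to its symbol or an older alias that was detected (p under 0.05 against negative controls) on 2 or more of the 8 arrays. Of the 46 genes, 41 had an annotated probe (69 probes in all), and 39 genes with 58 probes passed the detection rule, among 14574 tested probes of 24526 on the array. TPM3, FLNA, CAP1, CAPZA1 and RDX had no annotated probe, and the single probes of ACTG2 (enteric smooth muscle actin) and CNN1 (the smooth muscle calponin) were detected on none of the 8 arrays.

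HCT116 is a human colorectal carcinoma cell line. It was studied here as a p53-/- and a p53+/+ line, each left untreated or given P2, a small molecule compound, at 25 µM. Each of the 4 groups was measured on 2 Illumina expression arrays: untreated p53-/- cells, p53-/- cells with P2, untreated p53+/+ cells and p53+/+ cells with P2. The labels give no treatment time, no solvent control and no passage or clone, and they do not say whether replicates were separate cultures, so that p-values measure only array-to-array spread, part or all of which may be technical. With 1 line per genotype, the effect of p53 and any other difference between the lines cannot be told apart.

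Actin filaments grow from monomers that profilin delivers to formins or that the Arp2/3 complex nucleates on existing filaments. The filaments are severed by cofilin and gelsolin, lined by tropomyosins and calponins, pulled by non-muscle myosin and anchored at adhesions through talin, vinculin and zyxin. Free actin monomer holds MRTFA in the cytoplasm, and when filaments grow and the monomer pool shrinks, MRTFA enters the nucleus and binds SRF at a short DNA element, the CArG box, in the promoters of actin and many actin-binding genes. A second class of co-activators, the ternary complex factors, directs SRF to growth factor response genes.

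Some promoters of members carry the CArG box, the DNA element described above, and SRF binding to them was not measured here. In the RefSeq promoter table of GRCh38.p14, which covers 250 bases before to 50 after each annotated start, 42 of the 46 members had an entry (75 promoters). ACTB, TAGLN, MYL9 and PFN2 had no entry, so their promoters were not searched for the box. The box, a run of C, C, then 6 letters that are A or T, then G, G, reads the same way on both strands. It was found in 10 of these promoters (13.3%) and in 454 of all 35116 promoters in the table (1.29%). The 10 belong to 8 genes (ACTG1, ACTG2, ACTN1, CNN2, FHL2, FLNA, SRF and TPM4), and overlapping FHL2 promoters that share a box were counted separately. The stretches around the box follow for the detected members that carry one, each written along the gene's own strand with the box in capitals, and then for ACTA2, whose windows hold no full box but a pair of elements, in capitals, with 1 core letter G or C in place of A or T.
ACTG1, chr17:81512859-81512918, minus strand: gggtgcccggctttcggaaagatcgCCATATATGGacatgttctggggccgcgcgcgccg
ACTN1, chr14:68977703-68977762, minus strand: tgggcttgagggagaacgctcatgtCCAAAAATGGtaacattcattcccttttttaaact
CNN2, chr19:1026494-1026553, plus strand: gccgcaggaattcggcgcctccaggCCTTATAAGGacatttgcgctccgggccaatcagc
FHL2, chr2:105438580-105438639, minus strand: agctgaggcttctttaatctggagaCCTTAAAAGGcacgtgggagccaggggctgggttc
FHL2, chr2:105399076-105399135, minus strand: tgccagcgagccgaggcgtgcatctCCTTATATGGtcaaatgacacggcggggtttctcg
SRF, chr6:43171214-43171268, plus strand: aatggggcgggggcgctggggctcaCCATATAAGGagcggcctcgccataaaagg
TPM4, chr19:16067340-16067399, plus strand: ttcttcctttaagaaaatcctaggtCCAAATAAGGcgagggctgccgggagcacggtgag
ACTA2 first element, chr10:88952860-88952919, minus strand: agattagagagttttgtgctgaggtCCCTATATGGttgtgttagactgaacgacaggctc
ACTA2 second element, chr10:88952810-88952869, minus strand: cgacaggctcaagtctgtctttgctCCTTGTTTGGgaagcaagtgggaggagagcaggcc
The SRF stretch ends 1 base before the annotated start, and its last 10 letters are a second full box, so SRF's own promoter held 2. The first ACTA2 element began at position -121 and the second at position -71 relative to the start. Elements of this weaker kind were common, in 6.94% of all promoters and in 9.33% of the members' promoters. No box of either kind was found in the windows of DIAPH2.

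The arrays had median intensities of 52.2 to 69.1, and 12775 to 13998 probes were detected on each (52.1% to 57.1%). Of the 69 annotated member probes, between 54 and 58 were detected on each array. Replicates correlated at r = 0.989 to 0.995 over the tested probes. Replicate 1 of the untreated p53-/- cells stood apart: 215 tested probes lay at least 1 log2 unit below replicate 2, against 0, 1 and 6 such probes in the other groups, and 3 of the 215 were member probes (1 each of CNN2, PDLIM7 and VCL). The member differences that this array moved most are given below with and without it. In the check of cell type, 7 of 10 colon epithelial markers, including EPCAM, KRT8, KRT19 and CDH1, were detected on all 8 arrays, while KRT20 and VIL1 were detected on none.

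DIAPH2 and ACTA2 rose with P2 in both genotypes, and these were the members with the largest called changes in each. The DIAPH2 probe was detected with P2 only and so had to differ, and it is among the called probes and genes counted here. Among p53-/- arrays 11 of the 58 member probes passed adjusted p under 0.05 in limma (19%), 6 higher and 5 lower, which lay below the 25.4% of all tested probes that passed (11.8% higher and 13.6% lower). The p53+/+ cells had 8 called member probes (13.8%), 5 higher and 3 lower, near the 12% of all tested probes (5.71% higher and 6.29% lower). Counted by the brightest probe of each gene, 7 of 39 genes were called in either genotype, 3 higher and 4 lower in p53-/- cells and 4 higher and 3 lower in p53+/+ cells. The median log2 difference over the member probes was -0.12 in p53-/- cells, against -0.04 over all tested probes, and -0.08 in p53+/+ cells, against -0.01. Of the 58 probes, 13 in p53-/- cells had both P2 arrays above both untreated arrays and 28 had both below, where 27.9% and 36.2% of all tested probes did so; in p53+/+ cells these counts were 11 and 26, against 28.3% and 31%.

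The number of called members was sensitive to single arrays. For p53-/- cells it was 6 (3 higher, 3 lower) without untreated p53-/- replicate 1, when 14.8% of all probes were called. It was 4 when p53-/- P2 replicate 1 was left out (10.3% of all probes), 5 for replicate 2 (14.7%), and 6 without either p53+/+ P2 array (22.3%). The p53+/+ count was 3 and 4 without untreated p53+/+ replicate 1 and 2 (4.03% and 4.65% of all probes), and 3 and 2 without p53+/+ P2 replicate 1 and 2 (4.03% and 4.59%). ACTA2 was called in each of these fits and in each of the 19 alternative settings tried in both genotypes. DIAPH2 was called in its 18 settings, but its probe was detected with P2 only and so had to differ, which makes this a description. The brighter CNN2 probe kept its call in p53-/- cells in all settings except a minimum change of 1.5-fold. Every other called member lost its call when at least 1 array was left out.

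**Figure D1:**
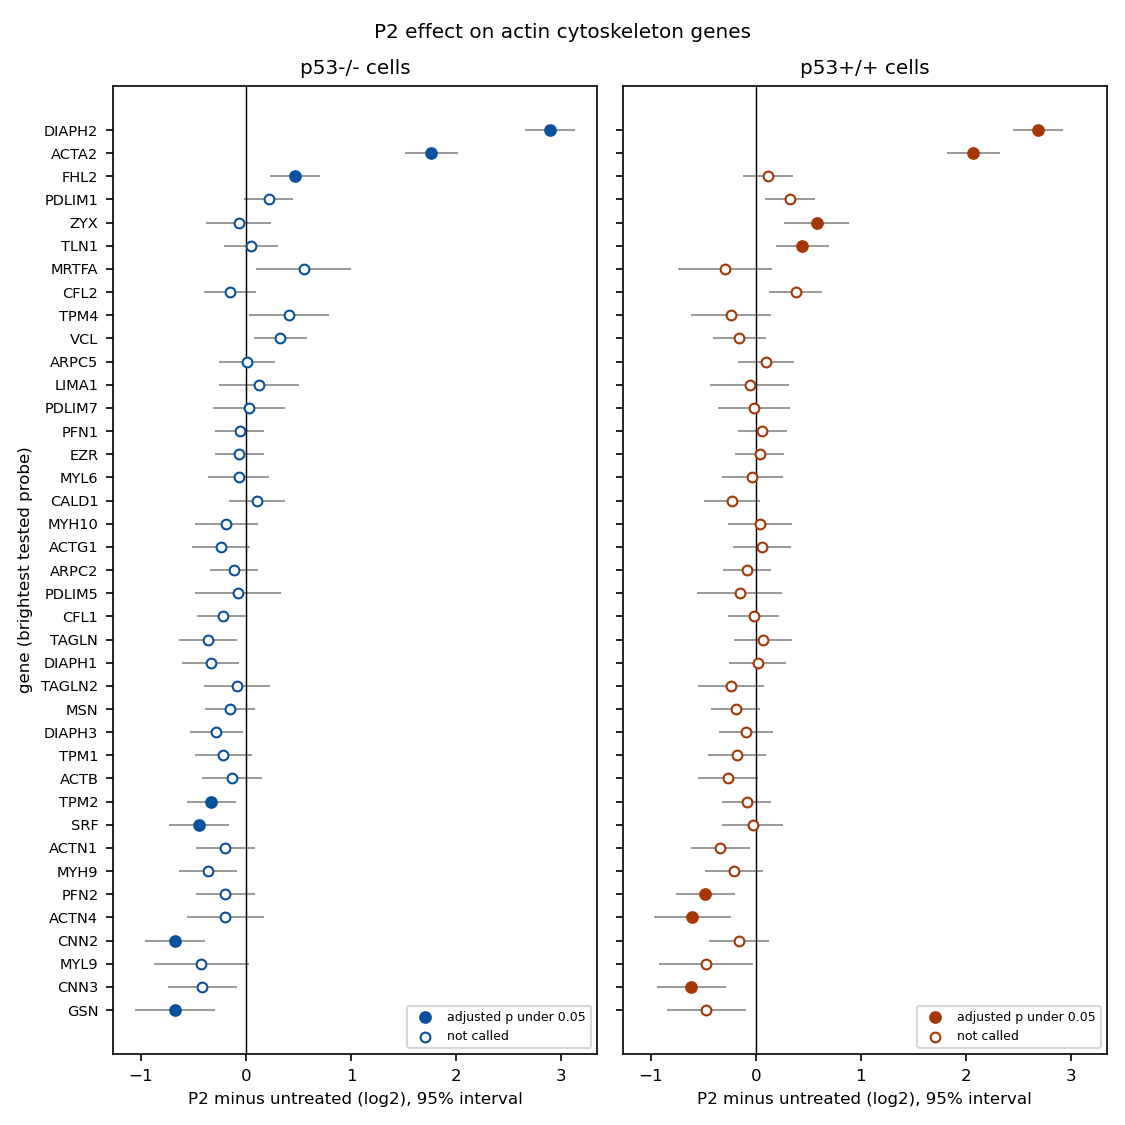
P2 effect on 39 actin cytoskeleton genes, each by its brightest tested probe, in p53-/- cells (left) and p53+/+ cells (right). The x axis is the log2 difference, P2 minus untreated, with its 95% interval as a bar; filled points passed adjusted p under 0.05, 7 genes in each panel. DIAPH2, whose probe was detected with P2 only, and ACTA2 lie far to the right in both panels, and the other genes lie between -0.68 and 0.58.

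Among the actins, the isoform that rose was ACTA2, the actin typical of smooth muscle and of contractile fibroblasts. Its log2 intensity was 6.97 and 6.85 in untreated p53-/- cells and 8.64 and 8.71 with P2. The values in p53+/+ cells were 6.86 and 6.92 untreated and 9.05 and 8.87 with P2. All 4 P2 arrays lay above all 4 untreated arrays, with no overlap in either genotype. The rise was 1.76 ± 0.11 log2 units (standard error of the fit, 2 arrays a group), or 3.40-fold, for p53-/- cells (adjusted p = 2.6e-05) and 2.07 ± 0.11, or 4.20-fold, for p53+/+ cells (adjusted p = 8.8e-06). The difference between the genotypes' responses was 0.31 ± 0.16 (95% interval -0.05 to 0.66, adjusted p = 0.377). Untreated cells of the genotypes differed by -0.02 (p53+/+ minus p53-/-, 95% interval -0.27 to 0.23).

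Markers of cells that express ACTA2 at high levels were read beside it. Of 6 smooth muscle markers, MYH11, LMOD1 and CASQ2 were detected on no array, DES on 2, and SYNM and SMTN on all 8. The summed non-normalized intensity of the list was 1062 to 1332 in untreated and 937 to 1508 in P2-treated p53-/- cells, and 1044 to 1437 and 880 to 1031 in p53+/+ cells. SMTN (mean log2 9.72) was far brighter than SYNM (5.90), the next in the list, so this sum mainly follows SMTN. Of 8 fibroblast markers, COL1A2, COL3A1, LUM, FAP and THY1 were detected on none and COL1A1 on all 8. The summed intensity was 346 to 416 over the untreated and 319 to 381 over the P2 arrays. COL1A1, the brightest of these, had a mean log2 of 5.53, so this sum is mostly background signal. Neither sum can tell whether such cells were present. The striated muscle actins ACTC1 and ACTA1 were detected on none. In bulk RNA, more cells expressing a gene and more RNA per cell cannot be told apart.

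The cytoplasmic actins, ACTB and ACTG1, which make up most of the actin of a non-muscle cell, did not pass the test. ACTB read 14.18 and 14.06 in untreated p53-/- cells against 14.06 and 13.91 with P2, and 14.15 and 14.05 in untreated p53+/+ cells against 13.97 and 13.70. The P2 arrays lay at or below the untreated arrays in both genotypes, with a difference of -0.14 ± 0.13 in p53-/- cells (95% interval -0.42 to 0.15, adjusted p = 0.465) and -0.26 ± 0.13 with p53 present (95% interval -0.55 to 0.02, adjusted p = 0.212). The second ACTB probe differed by -0.13 and -0.20. ACTG1 differed by -0.24 (adjusted p = 0.179) and 0.06 (adjusted p = 0.796). The scale has little room above these probes: the ACTG1 intensity was itself the highest on the untreated p53-/- arrays, at 21423 and 20865. The actin genes are close in sequence, and cross-hybridization between their probes was not tested.

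Of the 7 filament-forming members, with 11 tested probes, DIAPH2 was called in both genotypes and PFN2 in p53+/+ cells. Of all tested probes, 25.4% were called in p53-/- cells and 12% in p53+/+ cells. DIAPH2 encodes a diaphanous-related formin, which nucleates and elongates unbranched filaments. Its probe read 4.48 and 4.45 in untreated p53-/- cells and 4.50 and 4.45 in untreated p53+/+ cells, where it was not detected on any array. With P2 it read 7.44 and 7.26 in p53-/- cells and 7.18 and 7.13 in p53+/+ cells, detected on all 4 arrays. Because untreated cells gave only a bound, the rise is stated against the lowest signal among detected probes on each untreated array: at least 5.63-fold in p53-/- cells (fitted difference 2.89 ± 0.11, adjusted p = 9.8e-07) and at least 5.19-fold in p53+/+ cells (2.68 ± 0.11, adjusted p = 1.7e-06). A probe that passes the detection rule only through its P2 arrays had to differ between the groups, and DIAPH2 is such a probe. The responses of the genotypes differed by -0.21 ± 0.15 (95% interval -0.55 to 0.13, adjusted p = 0.54). The other diaphanous formins did not pass in either genotype: the 2 DIAPH1 probes differed by -0.33 and 0.04 in p53-/- cells and by 0.02 and -0.24 in p53+/+ cells, and the 3 DIAPH3 probes by -0.28 to -0.26 and by -0.09 to 0.02. Without untreated p53-/- replicate 1 the brighter DIAPH1 probe was called, at -0.46 (adjusted p = 0.0472).

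PFN2, a profilin that supplies actin monomer to growing filaments, fell in p53+/+ cells. It read 11.56 and 11.57 untreated and 11.25 and 10.92 with P2, both P2 arrays below both untreated ones, a difference of -0.48 ± 0.12 (adjusted p = 0.0379). Its p53-/- values were 11.62 and 11.56 untreated and 11.40 and 11.39 with P2, which did not pass (-0.20 ± 0.12, adjusted p = 0.281), and the difference between genotypes was -0.28 (adjusted p = 0.468). The p53+/+ call ended when either untreated p53+/+ array, either p53-/- P2 array or p53+/+ P2 replicate 2 was left out (-0.49 to -0.31, adjusted p 0.0628 to 0.212). PFN1, the general profilin, differed by -0.06 and 0.06. The Arp2/3 subunits ARPC2 and ARPC5 did not pass, with differences of -0.12 to 0.15 over their 3 probes in both genotypes. The second ARPC2 probe lay just inside the detection rule, with 2 arrays at detection p of 0.0356 and 0.0421, and another ARPC2 probe just outside it, with 1 array at 0.0453.

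Of the filament turnover members, GSN, the severing and capping protein gelsolin, fell in p53-/- cells. It read 8.55 and 8.36 untreated and 7.97 and 7.59 with P2, with no overlap, a difference of -0.68 ± 0.17 (adjusted p = 0.019). In p53+/+ cells it read 8.29 and 7.99 untreated and 7.53 and 7.82 with P2, also without overlap (-0.47 ± 0.17, adjusted p = 0.107). The responses differed by 0.21 (adjusted p = 0.723), and the p53-/- call ended without untreated p53-/- replicate 1 (-0.58, adjusted p = 0.0767) and without p53-/- P2 replicate 2 (-0.49, adjusted p = 0.117). The cofilins, which sever and depolymerize filaments, did not pass: CFL1 differed by -0.22 and -0.02, and CFL2 by -0.15 in p53-/- and 0.38 in p53+/+ cells (adjusted p = 0.0567). CFL2 had the smallest adjusted p among the member probes for a difference between genotypes in the response, 0.53 ± 0.16 (adjusted p = 0.163).

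Of the crosslinking and contractile members, ACTN4 fell in p53+/+ cells and 1 of 2 MYL9 probes rose in p53-/- cells. ACTN4, a non-muscle alpha-actinin that bundles filaments, read 10.97 and 10.56 in untreated p53+/+ cells and 10.22 and 10.11 with P2. Both P2 arrays lay below both untreated arrays, and the difference was -0.60 ± 0.16 (adjusted p = 0.0422). The p53-/- arrays read 10.75 and 10.53 untreated and 10.58 and 10.30 with P2, which overlap (-0.20 ± 0.16, adjusted p = 0.403), and the responses differed by -0.40 (adjusted p = 0.424). The call ended without untreated p53+/+ replicate 1, where the difference was -0.40, without either p53+/+ P2 array and without either p53-/- P2 array (adjusted p 0.0544 to 0.241). ACTN1, its paralog, differed by -0.20 and -0.34 and did not pass.

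MYL9, a regulatory light chain of smooth muscle and non-muscle myosin, gave different answers by probe. The dimmer probe, ILMN_1776953, read 5.19 and 6.19 in untreated p53-/- cells and 6.78 and 6.48 with P2, a called difference of 0.94 ± 0.27 (adjusted p = 0.0326). In p53+/+ cells that probe read 6.58 and 6.80 untreated and 6.47 and 6.33 with P2 (-0.29, adjusted p = 0.531). The brighter probe, ILMN_1675062, read 8.29 and 7.82 against 7.85 and 7.41 in p53-/- cells, which overlap, and 7.45 and 7.82 against 7.21 and 7.12 in p53+/+ cells, and its differences, -0.43 and -0.47, did not pass (-0.20, adjusted p = 0.563, in p53-/- cells without untreated replicate 1). Low in replicate 1 of the untreated p53-/- cells, the dimmer probe differed by 0.44 (adjusted p = 0.11) without that array, and its call also ended without any 1 of the other arrays except untreated p53-/- replicate 2 (0.79 to 1.08, adjusted p 0.0507 to 0.181). The myosin heavy chains MYH9 and MYH10 and the light chain MYL6 did not pass in either genotype, with differences of -0.36 to 0.04 over their 4 probes.

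**Figure D2:**
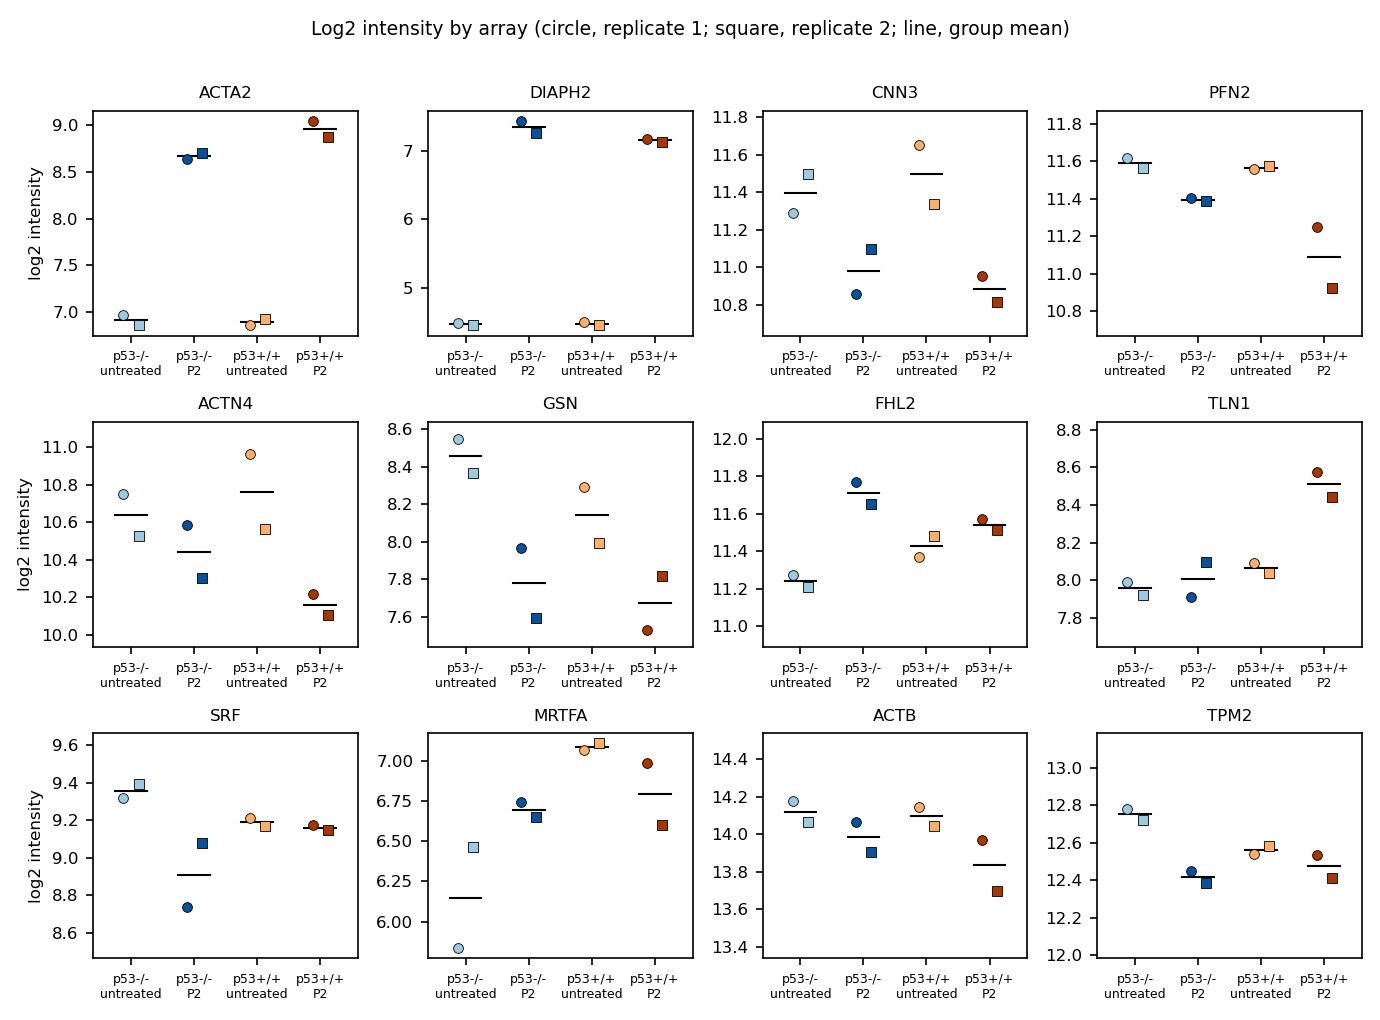
Normalized log2 intensity of 12 members, by their brightest probe, on each of the 8 arrays. The x axis gives the 4 groups, circles are replicate 1, squares replicate 2 and lines group means; each panel has its own y range. In ACTA2 and DIAPH2 all 4 P2 arrays lie above all 4 untreated arrays, while the ACTB arrays all lie between 13.70 and 14.18.

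The filament-lining members, tropomyosins, calponins, caldesmon and transgelins, had 13 tested probes in 8 of 10 genes. Of these probes 2 fell in p53-/- cells and 1 in p53+/+ cells, where 13.6% and 6.29% of all tested probes fell. The brighter probe of CNN2, a calponin of non-muscle cells whose promoter box is printed above, read 10.44 and 10.40 in untreated p53-/- cells and 9.89 and 9.60 with P2, with no overlap. Its difference was -0.68 ± 0.13 (adjusted p = 0.00569), and the call was kept when any 1 array was left out (-0.82 to -0.53). The same probe read 10.41 and 10.28 untreated and 10.24 and 10.12 with P2 in p53+/+ cells (-0.16 ± 0.13, adjusted p = 0.458), and the responses differed by 0.52 ± 0.18 (95% interval 0.11 to 0.92), which did not pass over all probes (adjusted p = 0.212). A dimmer CNN2 probe, ILMN_1708486, read 4.47 on untreated p53-/- replicate 1 and between 6.99 and 7.70 on the other 7 arrays. Its p53-/- difference was 1.59 ± 0.62 (adjusted p = 0.0904) with that array and 0.33 (adjusted p = 0.388) without it.

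CNN3, a further calponin of non-muscle cells, fell in p53+/+ cells, where it read 11.65 and 11.34 untreated and 10.95 and 10.82 with P2 (-0.61 ± 0.15, adjusted p = 0.0283). The p53-/- arrays read 11.29 and 11.50 untreated and 10.86 and 11.10 with P2, and the difference of -0.42 ± 0.15 did not pass (adjusted p = 0.0643). The P2 arrays lay below the untreated arrays in both genotypes, and the responses differed by -0.19 (adjusted p = 0.699). The p53+/+ call ended without untreated p53+/+ replicate 1 or either p53+/+ P2 array (-0.68 to -0.45, adjusted p 0.0931 to 0.174). TPM2, the beta-tropomyosin, fell in p53-/- cells by its brightest probe, from 12.78 and 12.72 to 12.45 and 12.39, a difference of -0.33 ± 0.10 (adjusted p = 0.044) that ended without any 1 of the 8 arrays (adjusted p 0.0602 to 0.162). In p53+/+ cells the same probe read 12.54 and 12.58 untreated and 12.53 and 12.41 with P2 (-0.09, adjusted p = 0.64). The second TPM2 probe differed by -0.22 and 0.27 and the dimmest by -0.15 and -0.08, and none of these passed.

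The transgelins TAGLN and TAGLN2, short calponin relatives, did not pass: the brighter TAGLN probe, for a gene often used as a readout of SRF in smooth muscle, differed by -0.36 in p53-/- cells (adjusted p = 0.0567) and by 0.07 in p53+/+ cells. TPM1 differed by -0.29 to -0.18 over 2 probes and both genotypes. TPM4 differed by 0.41 (0.19 without untreated p53-/- replicate 1) and -0.23 and caldesmon (CALD1, detected on 5 arrays) by 0.10 and -0.22, and none of these passed.

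The 8 adhesion and LIM-domain members had 15 tested probes, of which 3 rose and 1 fell in p53-/- cells and 3 rose in p53+/+ cells. Of all tested probes, 11.8% rose and 13.6% fell in p53-/- cells and 5.71% rose in p53+/+ cells. FHL2, a LIM-domain co-factor that is itself an SRF target, rose in p53-/- cells by both probes. The brighter read 11.27 and 11.21 untreated and 11.77 and 11.65 with P2, with no overlap (0.47 ± 0.11, adjusted p = 0.0133). The dimmer read 10.77 and 10.74 untreated and 11.10 and 11.07 with P2 (0.33 ± 0.10, adjusted p = 0.0353). In p53+/+ cells the brighter read 11.37 and 11.48 against 11.57 and 11.51 (0.12, adjusted p = 0.527) and the dimmer 10.73 and 10.76 against 11.06 and 11.07 (0.32, adjusted p = 0.0641), without overlap for either and without a call. The first p53-/- call ended without p53-/- P2 replicate 1 (0.41, adjusted p = 0.0906) and the second without any 1 of the 8 arrays (adjusted p 0.0523 to 0.14). Under scaling by the array median, neither probe was called (0.31, adjusted p = 0.312, and 0.19, adjusted p = 0.565).

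TLN1, talin, which links integrins to actin, rose in p53+/+ cells. It read 8.09 and 8.04 untreated and 8.58 and 8.44 with P2 (0.44 ± 0.11, adjusted p = 0.035). In p53-/- cells it read 7.99 and 7.92 against 7.91 and 8.10, which overlap (0.05, adjusted p = 0.787), and the responses differed by 0.40 (adjusted p = 0.264). Leaving out any 1 of the 4 p53+/+ arrays ended the call (0.38 to 0.51, adjusted p 0.0877 to 0.189), as did scaling by the median (0.27, adjusted p = 0.491).

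The probes of ZYX, zyxin, which recruits actin-assembly factors to adhesions under tension, differed from each other, and in p53+/+ cells they lay on opposite sides of the untreated arrays. ILMN_1701875 rose in p53+/+ cells from 9.67 and 9.27 to 10.06 and 10.04 (0.58 ± 0.14, adjusted p = 0.0272), and in p53-/- cells it read 9.36 and 9.28 against 9.24 and 9.26 (-0.07, adjusted p = 0.741). ILMN_2371169 fell in p53-/- cells from 10.44 and 9.74 to 9.35 and 9.11 (-0.86 ± 0.20, adjusted p = 0.0147), and in p53+/+ cells it read 9.43 and 9.37 against 9.07 and 8.99 (-0.37, adjusted p = 0.271). In p53+/+ cells both P2 arrays were thus above both untreated ones by the first probe and below them by the second, so no direction is given for the gene. The first call ended without untreated p53+/+ replicate 2 or either p53+/+ P2 array (0.38 to 0.59, adjusted p 0.112 to 0.143) and under median scaling (0.39, adjusted p = 0.29), and the second without either p53-/- P2 array (-0.98 to -0.74, adjusted p 0.0503 to 0.0901). Without untreated p53-/- replicate 1, on which the second probe was high, its difference was -0.51 and kept its call.

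VCL, vinculin, which reinforces the talin link, rose in p53-/- cells by its dimmer probe, ILMN_2413527, from 6.70 and 8.0 to 8.36 and 8.38 (1.02 ± 0.32, adjusted p = 0.0448). In p53+/+ cells that probe read 8.35 and 8.33 against 8.24 and 8.20 (-0.12, adjusted p = 0.842). The low array was again untreated p53-/- replicate 1, and without it the difference was 0.37 (adjusted p = 0.0854). Any 1 of the other arrays except untreated p53-/- replicate 2 also ended the call when left out (1.01 to 1.04, adjusted p 0.0679 to 0.16). The brighter VCL probe read 11.30 and 11.48 untreated and 11.76 and 11.67 with P2 in p53-/- cells, without overlap (0.33, adjusted p = 0.0592; 0.24, adjusted p = 0.267, without untreated replicate 1), and differed by -0.16 in p53+/+ cells (adjusted p = 0.406).

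PDLIM7, a PDZ and LIM-domain protein of stress fibres, had 3 tested probes. ILMN_1690125 rose in p53+/+ cells from 6.72 and 6.54 to 7.18 and 7.31 (0.61 ± 0.13, adjusted p = 0.0204), and read 6.86 and 6.55 against 6.95 and 7.08 in p53-/- cells (0.31, adjusted p = 0.123). The call ended without any 1 of the 4 p53+/+ arrays (0.53 to 0.70, adjusted p 0.064 to 0.125) and under median scaling (0.48, adjusted p = 0.163). The brightest probe, ILMN_2396639, differed by 0.03 in p53-/- and by -0.01 in p53+/+ cells. The remaining probe, ILMN_1814985, was low on untreated p53-/- replicate 1, at 5.45 against 7.27 on replicate 2, and its p53-/- difference of 1.35 did not pass (adjusted p = 0.0596) and was 0.44 (adjusted p = 0.203) without replicate 1. PDLIM1, PDLIM5 and LIMA1, further LIM-domain proteins of actin bundles, did not pass in either genotype, with differences of -0.33 to 0.33 over 5 probes, the highest PDLIM1 in p53+/+ cells (0.33, adjusted p = 0.0742). Ezrin (EZR, listed under its older symbol VIL2) and moesin (MSN), which tie actin to the cell membrane, differed by -0.19 to 0.04 and did not pass.

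**Figure D3:**
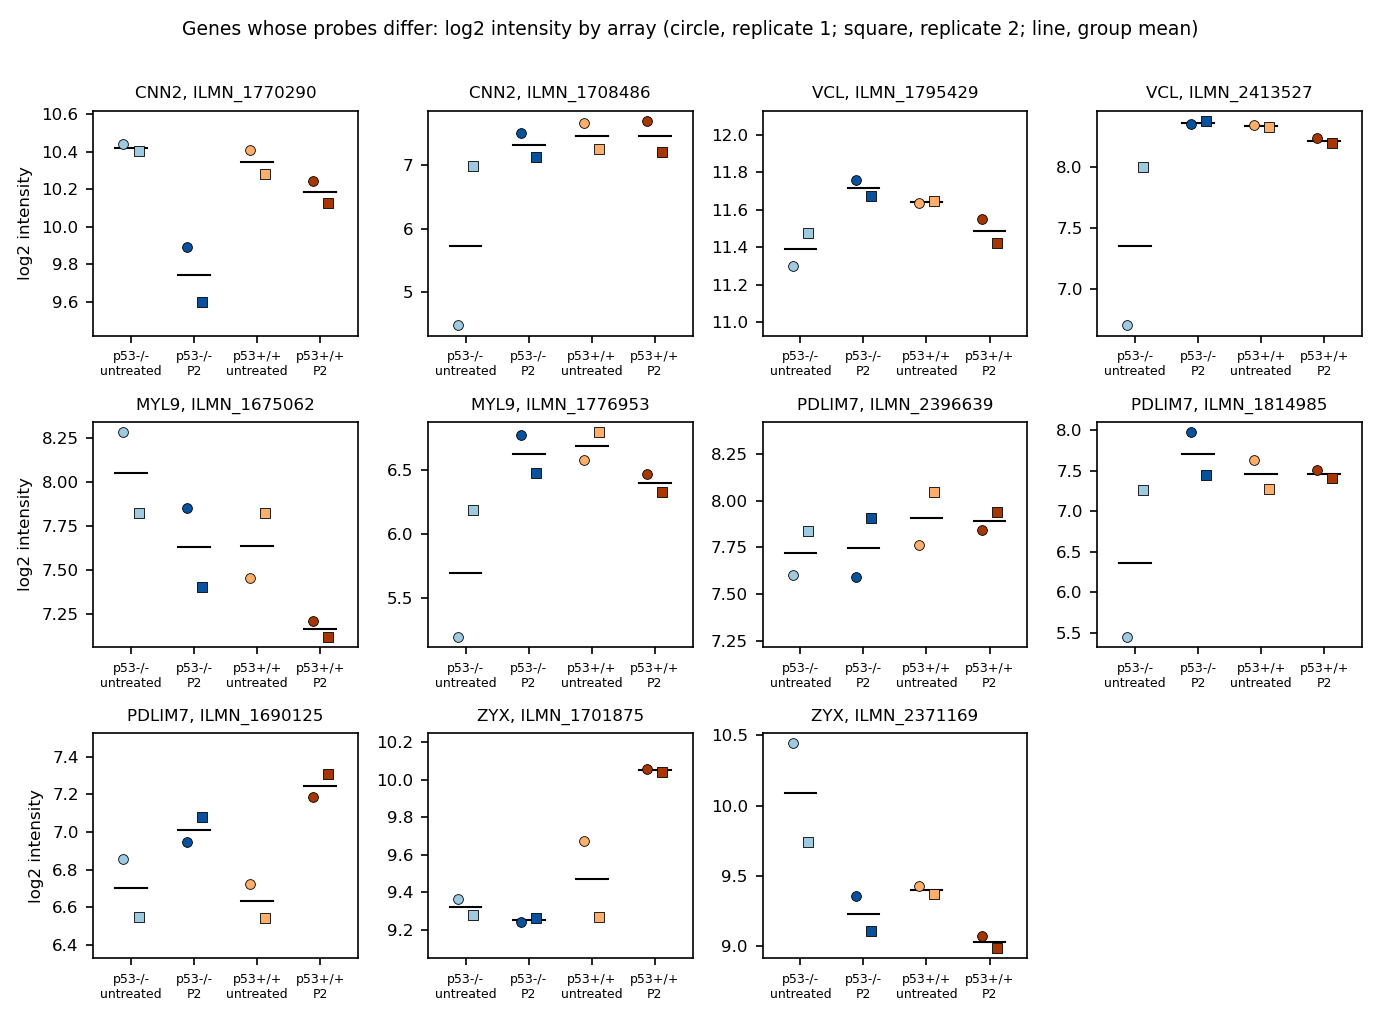
Normalized log2 intensity of every tested probe of 5 members whose probes differed (CNN2, VCL, MYL9, PDLIM7 and ZYX), by group, with circles for replicate 1, squares for replicate 2 and lines for group means; each panel has its own y range. 1 probe each of CNN2, VCL, MYL9 and PDLIM7 is lowest on the replicate 1 array of untreated p53-/- cells, and the 2 ZYX probes lie on opposite sides of the untreated arrays with P2 in p53+/+ cells.

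SRF, the transcription factor, fell in p53-/- cells. It read 9.32 and 9.39 untreated and 8.73 and 9.08 with P2, without overlap (-0.45 ± 0.13, adjusted p = 0.0318). In p53+/+ cells it read 9.21 and 9.17 against 9.18 and 9.15 (-0.03 ± 0.13, 95% interval -0.32 to 0.26, adjusted p = 0.912). The responses differed by 0.42 (adjusted p = 0.293). The p53-/- call ended without p53-/- P2 replicate 1 (-0.28, adjusted p = 0.199), without either untreated p53-/- array and without either p53+/+ P2 array (adjusted p 0.0508 to 0.085).

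MRTFA, the actin-regulated co-activator, did not pass in any comparison of the main fit. Its untreated genotype difference was called without background correction and on the authors' log2 values (0.735, adjusted p = 0.0394 for each). It was also called under median scaling (0.98, adjusted p = 0.00151) and with trended variance and robust moderation (0.94, adjusted p = 0.0348). Its P2 difference in p53-/- cells was called under median scaling (0.60, adjusted p = 0.0369). Both differences were called with replicate numbers as a block, crossed in untreated p53-/- cells, a setting added after seeing the data. There the untreated genotype difference was 0.94 (adjusted p = 0.0153) and the P2 difference in p53-/- cells 0.55 (adjusted p = 0.0312). MRTFA read 5.84 and 6.46 in untreated and 6.74 and 6.65 in P2-treated p53-/- cells, and 7.07 and 7.11 in untreated and 6.99 and 6.60 in P2-treated p53+/+ cells. Untreated p53-/- cells were lowest and untreated p53+/+ cells highest, with no overlap between them. The P2 difference for p53-/- cells was 0.55 ± 0.20 (adjusted p = 0.0723) and that for p53+/+ cells -0.29 ± 0.20 (adjusted p = 0.379), and the responses differed by -0.84 (adjusted p = 0.199). Without untreated p53-/- replicate 1, the lowest array, the P2 difference in p53-/- cells was 0.23 (adjusted p = 0.387), and without replicate 2 it was 0.86 and passed (adjusted p = 0.00442).

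The design also asks whether the genotypes differ and whether p53 status changes the response to P2. For the difference in response, 0 of 58 member probes passed in limma, as did 0% of all tested probes, with 13 member probes and 2383 of all at unadjusted p under 0.05. The members' differences between responses ran from -1.59 (the dimmer CNN2 probe) to 0.65 (ZYX, ILMN_1701875), so calls made in 1 genotype only were not shown to differ between genotypes. Leaving out untreated p53-/- replicate 2, which leaves replicate 1 alone in its group, gave 7 called member probes, when 6.81% of all probes were called.

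In untreated cells, 0 of 58 member probes differed between p53+/+ and p53-/- cells in limma, against 0.0686% of all tested probes (0.0412% higher and 0.0274% lower), with 12 member probes and 2892 of all at unadjusted p under 0.05. MRTFA had the smallest adjusted p, at 0.0724, and was 0.94 ± 0.20 higher in p53+/+ cells; without untreated p53-/- replicate 1 this was 0.62 (adjusted p = 0.175) and without replicate 2 it was 1.25 (adjusted p = 0.00106). Dropping untreated p53-/- replicate 2 brought the count to 7, when 9.08% of all probes were called, and scaling by the median brought it to 6 (4.26% of all probes). In P2-treated cells, 0 of 58 member probes differed between genotypes in limma, as did 0% of all tested probes, with 12 member probes and 2011 of all at unadjusted p under 0.05.

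Other genes known as targets of SRF with MRTF, outside the 46, were lower with P2 wherever they were called. Of 32 such genes 18 were tested by their brightest probe. In p53-/- cells 0 rose and 6 fell (33.3%, where 13.6% of all tested probes fell). In p53+/+ cells 0 rose and 5 fell (27.8%, where 6.29% fell). The list was chosen with earlier results of these data known, so these shares are a description and not a test of such targets. They also set brightest probes against all tested probes, dim ones included. The list's median difference was -0.19 in both genotypes, against -0.04 and -0.01 over all tested probes. The promoter table held 53 promoters of these genes, and 5 of them (9.43%) carried the full CArG box. A TGFB1I1 promoter was among these, while no CCN2, THBS1 or CSRP2 promoter was. Whether SRF had a part in the falls was not tested. CCN2, a matricellular growth factor also known as CTGF, read 8.16 and 8.16 untreated and 6.58 and 6.49 with P2 in p53-/- cells, and 8.16 and 8.24 against 6.28 and 6.43 in p53+/+ cells. Every P2 array lay below every untreated array, with differences of -1.63 ± 0.11 (adjusted p = 3.1e-05) and -1.84 ± 0.11 (adjusted p = 1.4e-05). THBS1, thrombospondin 1, read 7.61 and 7.16 against 5.99 and 5.96 in p53-/- cells and 7.42 and 7.10 against 5.80 and 6.26 in p53+/+ cells, and fell by 1.41 ± 0.19 (adjusted p = 0.00147) and by 1.23 ± 0.19 (adjusted p = 0.00445) log2 units. CCN2 and THBS1 kept both calls when any 1 array was left out. CCN1, a close relative of CCN2, fell by 0.60 and 0.73 (adjusted p = 0.015 and 0.0116), calls that ended without either p53-/- P2 array and, in p53+/+ cells, without either untreated array or P2 replicate 1 (adjusted p 0.0657 to 0.0784).

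CSRP2, a LIM protein of smooth muscle, fell by 0.41 in p53-/- cells and 0.43 in p53+/+ cells (adjusted p = 0.027 and 0.0396), and the first call was lost with each p53-/- array left out, the second with each p53+/+ array and each p53-/- P2 array left out (adjusted p 0.0623 to 0.203). TGFB1I1, a focal adhesion LIM protein also called Hic-5, fell in p53-/- cells by its brightest probe (-0.88, adjusted p = 0.00257), with -0.18 in p53+/+ cells (adjusted p = 0.432), while a dim second probe differed by -0.02 in p53-/- cells. The count in p53-/- cells was 4, all lower, without untreated p53-/- replicate 1, with CCN2, THBS1, CCN1 and TGFB1I1 still called, and it was 3 without either p53-/- P2 array. The p53+/+ count was 2 without either untreated p53+/+ array or the first p53+/+ P2 array, and 3 without the second or either p53-/- P2 array. The share of all tested probes called also fell in each of the left-out fits named here. The replicate block left 3 in p53+/+ cells (10.3% of all probes called, from 12%). A minimum change of 1.5-fold left 1 in each genotype (1.83% of all probes in p53-/- and 0.899% in p53+/+ cells). The direction was down for every call in every scaling tried.

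Of 14 listed growth factor response genes of the ternary complex factor type, 10 were tested, with 1 rise and 1 fall in p53-/- cells (20%, where 25.4% of all tested probes were called) and 0 rises and 1 fall in p53+/+ cells (10%, against 12%). FOSL1, a component of the AP-1 transcription factor, was the gene that fell, from 10.44 and 10.41 to 9.87 and 9.66 in p53-/- cells and from 10.40 and 10.56 to 9.82 and 9.54 in p53+/+ cells. These arrays did not overlap, and the differences were -0.66 ± 0.13 (adjusted p = 0.00771) and -0.80 ± 0.13 (adjusted p = 0.00539). The p53-/- call ended without p53-/- P2 replicate 2 (-0.55, adjusted p = 0.0549) and the p53+/+ call without untreated p53+/+ replicate 2 (-0.72, adjusted p = 0.051). ATF3, a stress-induced transcription factor, rose by 0.49 in p53-/- cells (adjusted p = 0.0208), which was 0.36 (adjusted p = 0.115) without untreated p53-/- replicate 1 and not called without either p53-/- P2 array or under median scaling, and differed by 0.09 in p53+/+ cells.

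A few regulators of actin outside the 46 are named for their called differences, which says nothing of such regulators as a group. ENAH, an Ena/VASP protein that keeps filament ends growing, fell in both genotypes, from 6.85 and 6.53 to 5.75 and 5.45 (-1.09 ± 0.17, adjusted p = 0.00262) and from 6.61 and 6.22 to 5.70 and 5.65 (-0.74 ± 0.17, adjusted p = 0.0245). ELK3, a ternary complex factor that partners SRF, fell from 7.11 and 6.95 to 5.75 and 5.78 in p53-/- cells (-1.26 ± 0.11, adjusted p = 0.000127) and from 6.32 and 6.39 to 5.86 and 5.90 in p53+/+ cells (-0.47 ± 0.11, adjusted p = 0.0223). In both genes all P2 arrays lay below the untreated arrays of the same genotype. In p53+/+ cells the coronin CORO1B rose by 0.67 (adjusted p = 0.0152) and the bundling protein PLS3 fell by 0.53 (adjusted p = 0.0205). This CORO1B probe differed by 0.17 in p53-/- cells (adjusted p = 0.385). Another CORO1B probe, ILMN_2377019, rose in p53-/- cells (0.65, adjusted p = 0.00498) and did not pass in p53+/+ cells (0.38, adjusted p = 0.0691). The p53+/+ calls of ELK3, CORO1B and PLS3 were lost with each of the 4 p53+/+ arrays left out (adjusted p 0.0539 to 0.139), and that of ENAH was lost with untreated replicate 1 or either P2 array left out (-0.76 to -0.54, adjusted p 0.108 to 0.159). In p53-/- cells ENAH and ELK3 kept their calls when any 1 array was left out.

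In p53-/- cells 3 further regulators rose, and all 3 read lower on the array that stood apart than on its replicate. ARPC1B, an Arp2/3 subunit, read 6.40 and 8.31 untreated and 9.25 and 8.86 with P2 (1.70 ± 0.47, adjusted p = 0.0281), which was 0.74 (adjusted p = 0.0207) without untreated p53-/- replicate 1. ARPC4, another subunit, read 8.29 and 9.22 against 10.30 and 10.08 (1.44 ± 0.27, adjusted p = 0.00543), which was 0.97 (adjusted p = 0.00771) without it. SSH1, a cofilin phosphatase, read 4.87 and 5.34 against 7.07 and 6.30 (1.58 ± 0.32, adjusted p = 0.00802), which was 1.35 (adjusted p = 0.0301) without it. All 3 calls ended with the minimum change of 1.5-fold and without p53-/- P2 replicate 1, where the adjusted p was 0.157 for ARPC1B, 0.0516 for ARPC4 and 0.0708 for SSH1, and that of ARPC1B also ended without replicate 2 (adjusted p = 0.0777). In p53+/+ cells these genes differed by 0.22, 0.11 and -0.19 and did not pass. A further Arp2/3 subunit, ARPC1A, named here after its values were seen, fell in p53-/- cells (-0.45, adjusted p = 0.0186), a call that ended without untreated replicate 1 (-0.39, adjusted p = 0.0903) and without either p53-/- P2 array.

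**Figure D4:**
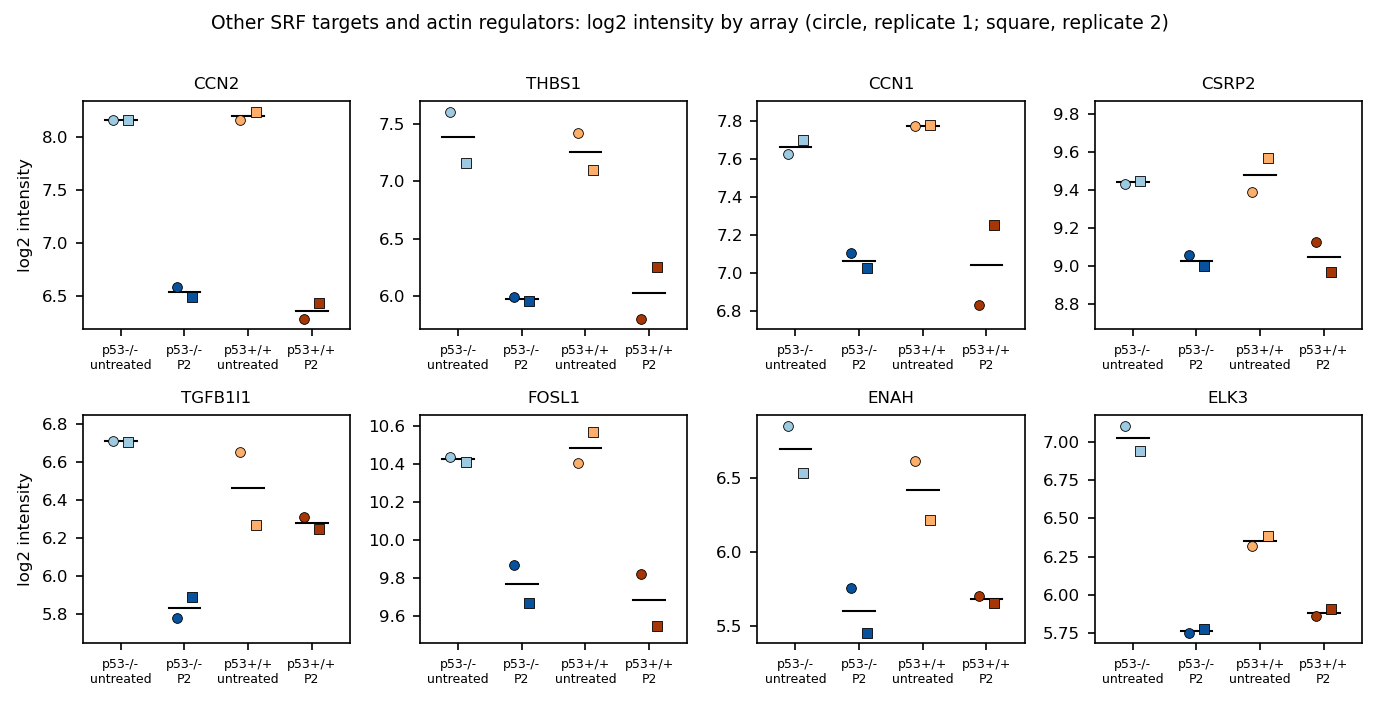
Normalized log2 intensity of 8 genes outside the 46 (SRF targets CCN2, THBS1, CCN1, CSRP2, TGFB1I1 and FOSL1, and the regulators ENAH and ELK3) on each of the 8 arrays, by group, with circles for replicate 1, squares for replicate 2 and lines for group means; each panel has its own y range. In 7 of the 8 genes both P2 arrays of each genotype lie below both of its untreated arrays by a called difference, and TGFB1I1 was called in p53-/- cells.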

How the data were processed

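The authors deposited a non-normalized table of intensity and detection p-value per probe and array, and log2 values that equal the quantile-normalized log2 intensities (largest difference 5e-09). The submitters' processing notes name GenomeStudio, without a version, and bead counts are not given in the sources used here, so the number of arrays limits the precision. Per the labels' protocols, total RNA was isolated with TRIZOL (the text speaks of frozen tissue, although the samples are a cell line) and amplified to biotin-labelled cRNA.

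Intensities were background-corrected with normexp from the detection p-values (offset 16), log2-transformed and quantile-normalized in limma 3.58.1 (R 4.3.3). Probes detected (p under 0.05) on 2 or more arrays entered 1 model over all 8 arrays (4 residual and 5.15 prior degrees of freedom), with Benjamini-Hochberg adjustment over 14574 probes, and checked on simulated data. Of the probes, 21834 carried 1 symbol, 0 several and 2692 none.

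Members with a called probe and non-overlapping arrays are named with every array's value, with SRF, MRTFA and ACTB in any case. From each other list, up to 4 called genes per P2 comparison are named. Counts over 1 of these lists are not reported here. Members and lists were chosen with earlier results of these data known. The targeted gene of the p53-/- line was not analysed here. Alternatives in background, scaling, filter, variance model, replicate block and minimum change are given at the end, and those with single arrays left out in the Results.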

Additional observations from a re-analysis of the deposited data

How the results depend on the processing

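In p53-/- cells 11 member probes were called for P2. This was 5 when only the groups compared were fitted, 2 with a minimum change of 1.5-fold and 4 to 14 when 1 array was left out. The share of all probes called in p53-/- cells fell as well in the first 2 of these settings. It was 25.4% in the main fit, 16.5% when only the groups compared were fitted and 1.83% with the minimum change. This share also moved when single arrays were left out, as given above. In p53+/+ cells the member count was 8 (5 higher, 3 lower, against 12% of all probes) and 5 under median scaling (2 higher, 3 lower, against 6.95%). It was 2 with the minimum change (0.899% of all probes), and it moved when single arrays were left out, as given above. Median scaling moved the median of all probes there from -0.01 to -0.11, and for single genes the cause was not tested. For the difference in response it was 0, and 5 under median scaling (3.2% of all probes). It moved when untreated p53-/- replicate 2 was left out, as given above. For the untreated genotype difference it was 0 (0.0686% of all probes), and 1 without background correction and on the authors' log2 values (2.3% each). It was 6 under median scaling (4.26%) and 1 with trended variance and robust moderation (1.75%). It moved when untreated p53-/- replicate 2 was left out, as given above. For the treated genotype difference it was 0, and 1 with the trended variance (0.398% of all probes). A group left with 1 array is assumed to vary like the others. Replicate numbers were taken as a block in 1 setting, the replicate block. It gave 10 and 7 calls for P2 in p53-/- and p53+/+ cells (24.2% and 10.3% of all probes) and 0 for the others. It ended the calls of TPM2 (adjusted p = 0.0523) and TLN1 (adjusted p = 0.0525). Deviations of same-numbered arrays correlated at -0.19 to -0.15 between untreated p53-/- cells and each of the other groups and at 0.10 to 0.20 among those others, and the labels name no shared batch, so the numbers were not taken to pair the arrays. The replicate block was also run with the numbers crossed in untreated p53-/- cells, added after seeing the data. It gave 18 calls for P2 in p53-/- cells (28.5% of all probes) and 3 for the untreated genotype difference (5.43%). Of 1131 values of single genes under the alternatives, 1003 kept their side of the threshold, 100 lost a call and 28 gained one. A change of sign was seen in 22 values, with a call in 0 of these in either setting.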
